A study of Mus musculus with 19 samples.

Results

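Genes of DNA replication were followed in kidneys of male C57BL/6 mice after ischemia-reperfusion, an operation in which the blood supply of the kidney is stopped and then let back. A list of 42 mouse genes was looked up by symbol through the Entrez Gene identifier of each entry, and a gene was kept when it reached at least 1 FPKM in 4 or more of the 19 libraries. FPKM, a fragment count divided by transcript length and by all mapped fragments, is a level that can be compared between genes per length. Of the 42 genes, 40 met this rule, out of 13594 of 19287 entries in the whole table that met the same filter. The other two were Cdc45 and Orc1. The members just inside were Ccne2, at or above 1 FPKM in 7 libraries, and Cdc7 in 9. Just outside were Cdc45 in 2 and Orc1 in 0.

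The groups were as follows. IRLacz kidneys (4 libraries) came from mice given L. casei Zhang, a Lactobacillus strain used as a probiotic, by mouth for 4 weeks before the injury, and were taken on day 5 after it. IRLac kidneys (5 libraries) had the same course with another Lactobacillus, taken here to be L. acidophilus because the design names only these bacteria. IR kidneys (5 libraries) were injured and taken on day 5, with no bacteria given. Sham kidneys (5 libraries) served as the uninjured controls, with no gavage or day stated for them. All groups share strain and sex, and the RNA is from whole kidney. Nothing in the labels says that each library is a separate mouse, so p-values measure the spread between these libraries. In bulk tissue, fewer cells of a type and less RNA per cell cannot be told apart.

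A cell copies its DNA by loading the MCM2-7 helicase at origins and switching it on at the start of S phase. Polymerases then follow the unwound strands, held by the sliding clamp PCNA, while other enzymes supply nucleotides, join the fragments of the lagging strand and rebuild chromatin. Most kidney tubule cells of an adult animal rest outside the cell cycle, and surviving tubule cells, fibroblasts and some leukocytes enter it after ischemic injury. E2F transcription factors, held back by the retinoblastoma family, are known to bind the promoters of many replication genes.

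The promoters of 4 members are shown because they hold letters of the E2F consensus and belong to members with small p-values in IRLacz against IR kidneys. Each run is the 250 bases before the gene's start, 5′ to 3′ on the gene's strand, from RefSeq on GRCm38.p6, and capitals mark the E2F-type letters TTTCCCGC, TTTGGCGC, TTTCGCGC or TTTGCCGC on either strand. The positions are chr8:75109259-75109508 (plus strand) for Mcm5, chr11:98907901-98908150 (plus) for Cdc6, chr17:56304063-56304312 (plus) for Uhrf1 and chr1:128359706-128359955 (minus) for Mcm6.
Mcm5: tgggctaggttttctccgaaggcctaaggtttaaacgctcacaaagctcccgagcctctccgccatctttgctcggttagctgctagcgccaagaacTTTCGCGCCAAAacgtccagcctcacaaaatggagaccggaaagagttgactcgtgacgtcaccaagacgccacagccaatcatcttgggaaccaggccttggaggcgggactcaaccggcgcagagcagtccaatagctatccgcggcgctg
Cdc6: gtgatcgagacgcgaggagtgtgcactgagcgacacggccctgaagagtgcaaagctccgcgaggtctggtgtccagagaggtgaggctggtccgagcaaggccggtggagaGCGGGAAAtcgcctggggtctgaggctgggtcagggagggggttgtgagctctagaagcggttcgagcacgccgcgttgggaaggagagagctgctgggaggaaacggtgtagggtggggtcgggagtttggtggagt
Uhrf1: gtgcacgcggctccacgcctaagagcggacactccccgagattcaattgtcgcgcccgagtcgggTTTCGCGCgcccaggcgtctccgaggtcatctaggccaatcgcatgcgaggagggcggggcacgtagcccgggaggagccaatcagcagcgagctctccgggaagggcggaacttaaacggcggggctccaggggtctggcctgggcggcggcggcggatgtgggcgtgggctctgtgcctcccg
Mcm6: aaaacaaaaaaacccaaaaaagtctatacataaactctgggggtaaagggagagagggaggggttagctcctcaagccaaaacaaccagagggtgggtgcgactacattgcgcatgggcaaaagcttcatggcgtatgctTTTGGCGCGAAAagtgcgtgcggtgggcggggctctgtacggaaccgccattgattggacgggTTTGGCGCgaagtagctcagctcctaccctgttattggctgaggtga
In Mcm5 the capitals are TTTCGCGC on the gene's strand, from -153 to -146, overlapped by TTTGGCGC on the other strand. Mcm6 has the same overlap of spellings, starting at -110, and a further TTTGGCGC at -47. Of the 40 members, 32 had an entry in the promoter table. Among these, 7 (21.9%) held an E2F-type spelling, against 3.76% of 10534 tested entries with a promoter and 2.16% of all 27025 genes with one. The letters CCAAT, on either strand, were found in 59.4% of the 32 members and 40.1% of tested entries. The cell cycle homology letters TTTGAA or TTCGAA were found in 15.6% of members and 14.8% of tested entries. A match is a string of letters in this window and says nothing about binding.

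The deposited table held 12750 to 13283 entries at or above 1 FPKM in IRLacz libraries, 12900 to 13240 in IRLac libraries, 13013 to 13181 in IR libraries and 11988 to 12156 in sham libraries. Read numbers were not given, so the depth behind each value is unknown. Summed levels of 5 proximal tubule markers such as Slc34a1 and Lrp2 were 1005 to 2265 FPKM in IRLacz, 1108 to 1931 in IRLac, 1151 to 1799 in IR and 3335 to 3794 FPKM in sham libraries, so the labelled tissue was present in all of them. A pair of libraries stood apart. IRLacz replicate 1 had the lowest value of its group in 36 of the 40 members, and the lowest of all 14 injured libraries in 32. IRLac replicate 3 had the lowest value of its group in 36 members. Calls in IRLacz against IR kidneys that were lost without IRLacz replicate 1 are given with that library and without it.

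On day 5 after injury, RNA of most replication genes was higher in IR than in sham kidneys. Of the 40 members, 31 reached 1 FPKM in at least 4 sham libraries and so met the filter without the injured kidneys. Of these 31, 29 were higher and none was lower (limma on log2(FPKM + 1), Benjamini-Hochberg adjusted p under 0.05 over all entries), while 54.1% of the 11812 entries that met the filter in sham libraries were higher and 21.2% lower. Their median log2 difference was 1.23, against 0.24 for those entries, and single members ranged from 0.03 (Rfc2, a clamp loader subunit) to 2.68 (Rrm2). The 2 that did not pass were Rfc2 and Rpa1. The other 9 members met the filter only with the help of injured kidneys. Of these, 7 were below 1 FPKM in every sham library (Pola1, Pole, Cdc6, Cdc7, Uhrf1, Ccne1 and Ccne2), and Gins2 and Chaf1b reached it in 2 and 1 sham libraries. Their difference from sham is built into the rule, and it is given as a description with no p. With all of these counted 38 of the 40 were higher, where 57.0% of all 13594 entries were higher and 18.6% lower, with medians of 1.26 and 0.29. In 37 members every IR library lay above every sham library, which was so for 48.6% of all entries. The count of 37 takes in the 9 members whose difference is built into the rule, and the exceptions were Rfc2, Rpa1 and Tyms.

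The scaling of the libraries changed these counts. Higher entries were 75.4% of the calls on FPKM as deposited, 49.8% under median-ratio scaling and 45.6% under quantile scaling. Median-ratio scaling put the median of all entries at 0.0, and the members' median at 0.96 with 37 members higher. Rfc2 and Rpa1 then passed as lower, at -0.31 and -0.23. Cell type markers moved in both directions in the same libraries, where 57.0% of all entries were higher and 18.6% lower. All 5 proximal tubule and all 2 podocyte markers were lower, and of 5 endothelium markers 3 were higher and 2 lower. All 10 macrophage and monocyte markers tested, all 6 of fibroblasts, all 5 of injured tubule (among them Havcr1 and Lcn2) and all 15 of mitosis were higher in IR than in sham kidneys. Of these, Itgam, Krt20, Sox9 and most mitosis markers, such as Mki67, Ccnb1 and Cdk1, were below 1 FPKM in every sham library. Such markers met the filter only through injured kidneys, so their difference from sham is built into it. Summed macrophage markers were 1323 to 1892 FPKM in IR and 100.5 to 136.1 FPKM in sham libraries, and no macrophage marker was listed at 0 in any library. Their part in the members' difference was not tested.

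**Figure D1:**
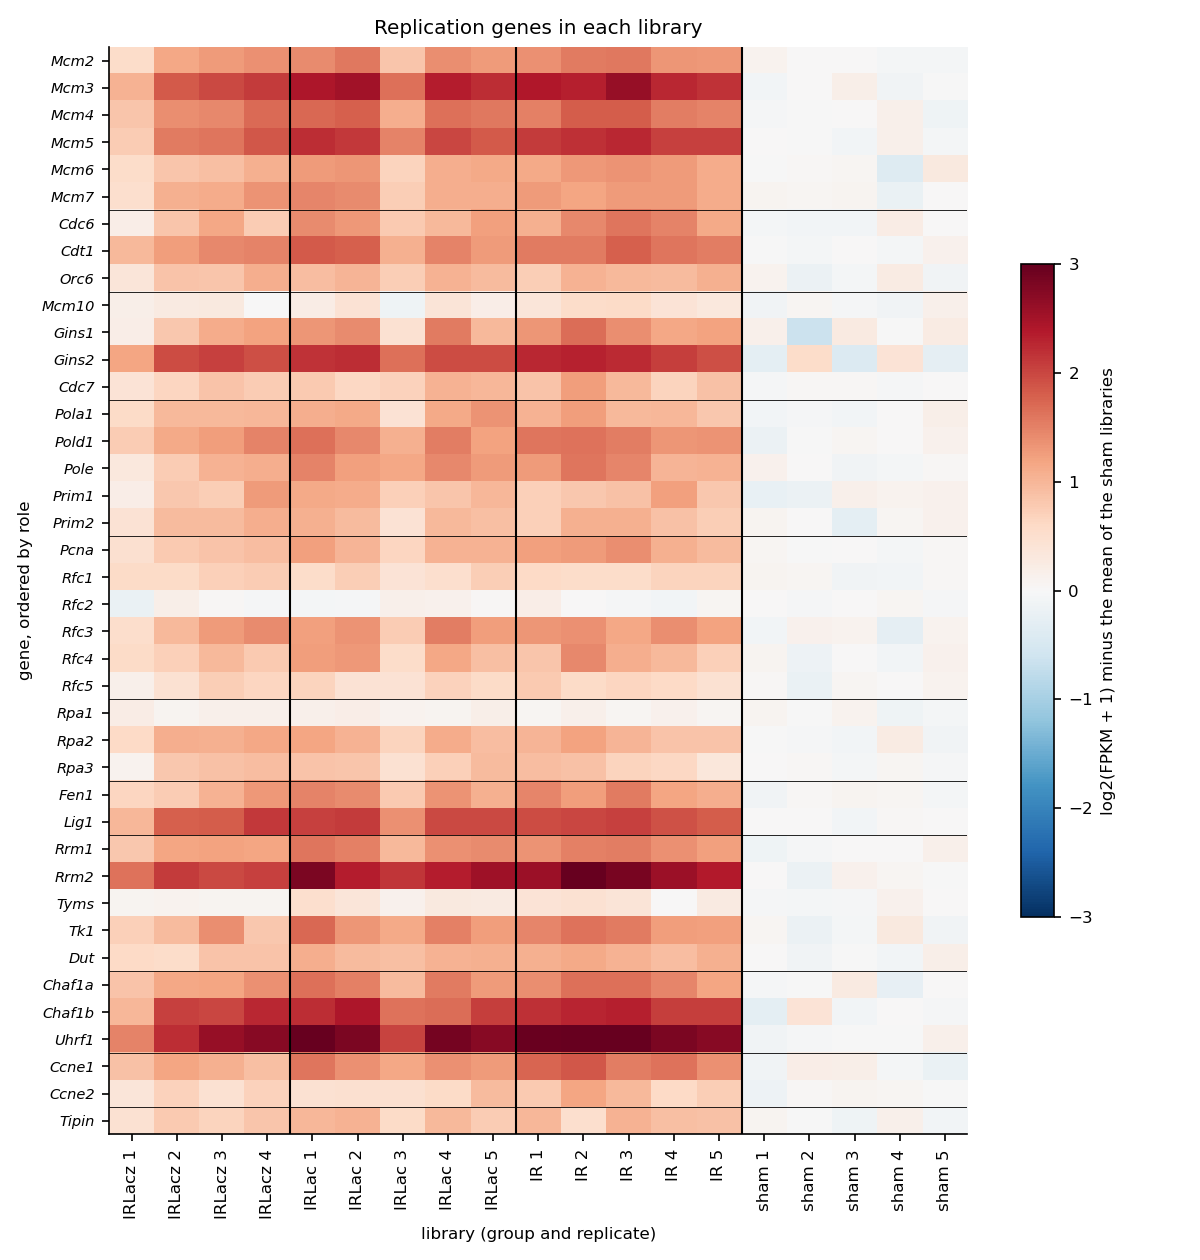
Heat map of the 40 replication genes (rows, grouped by role) in the 19 libraries (columns: IRLacz, IRLac, IR, sham). Colour is log2(FPKM + 1) minus the mean of the 5 sham libraries: 38 rows passed as higher in IR kidneys, Rfc2 and Rpa1 stay near 0, and the columns IRLacz 1 and IRLac 3 are paler than their neighbours.

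In IRLacz kidneys, 10 of the 40 members were lower than in IR kidneys and none was higher (limma). Lower entries made up 7.92% of all those tested and higher ones 5.39%. The 10 genes were Rrm2, Ccne1, Mcm5, Mcm3, Cdc6, Uhrf1, Pole, Tk1, Pcna and Dut, with log2 differences between -0.74 and -0.34. At an unadjusted p under 0.05, 22 members were lower and 0 higher, and 38 of the 40 differences were below 0. The 22 take in Ccne2, which met the filter only with the help of IR libraries. Over all 13594 entries, 2276 were lower and 1895 higher at that level, and 6917 differences were below 0. The median was -0.30 for the members and -0.00 for all entries tested. In 10 members every IRLacz library lay below every IR library, against 6.85% of all entries. Those were Rrm2, Rrm1, Ccne1, Mcm3, Mcm5, Mcm6, Mcm10, Cdt1, Pcna and Dut.

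The count depended on single libraries. It was 4 without IRLacz replicate 1 (Ccne1, Dut, Mcm5 and Rrm2), 5 without IRLacz replicate 2 (those and Pcna), 6 without IR replicate 1 (Ccne1, Cdc6, Dut, Mcm5, Pcna and Rrm2), 4 without IR replicate 2 (Ccne1, Dut, Mcm5 and Rrm2) and 3 without IR replicate 3 (Ccne1, Dut and Rrm2). Over all entries 1809 passed in the main fit, in either direction, and 606 to 2197 with 1 library left out. Without IRLacz replicate 1, 3.46% of all entries were lower and 4.83% higher, and the members' median was -0.19. With that library and IRLac replicate 3 both left out, 7 members were lower: Ccne1, Dut, Mcm3, Mcm5, Pcna, Rrm2 and Uhrf1. In that setting 5.52% of all entries were lower and 6.44% higher. Dut and Rrm2 passed as lower in all 32 alternatives run, Mcm5 in 30, Pcna in 28, Mcm3 in 24, Tk1 in 21 and Uhrf1 in 13 of them. Of the 31 that could be run for the others, Ccne1 passed in 30, Cdc6 in 24 and Pole in 22.

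Some other genes moved with them, where 7.92% of all entries were lower and 5.39% higher. Of 5 proximal tubule and 5 endothelium markers 0 passed, and 1 of 2 podocyte markers was higher. Of 15 mitosis genes, such as Mki67 and Ccnb1, 12 were lower in IRLacz than in IR kidneys, with summed levels of 34.54 to 65.68 FPKM in IRLacz and 82.44 to 126.2 FPKM in IR libraries. Of 10 macrophage and monocyte markers 6 were lower, with sums of 537.6 to 1267 FPKM in IRLacz and 1323 to 1892 FPKM in IR libraries. Of 6 fibroblast markers 4 were lower, at 280.1 to 431.4 FPKM in IRLacz and 599.4 to 731.5 FPKM in IR libraries. Of the 5 injured tubule markers 0 passed with limma, and 2 were lower at an unadjusted p under 0.05. Their sum was 287.3 FPKM in IRLacz replicate 1, 684.6 to 1119 FPKM in the other IRLacz libraries and 779.6 to 1207 FPKM in IR libraries. No macrophage, fibroblast or injured tubule marker was listed at 0 in these libraries, and their part in the members' difference was not tested.

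**Figure D2:**
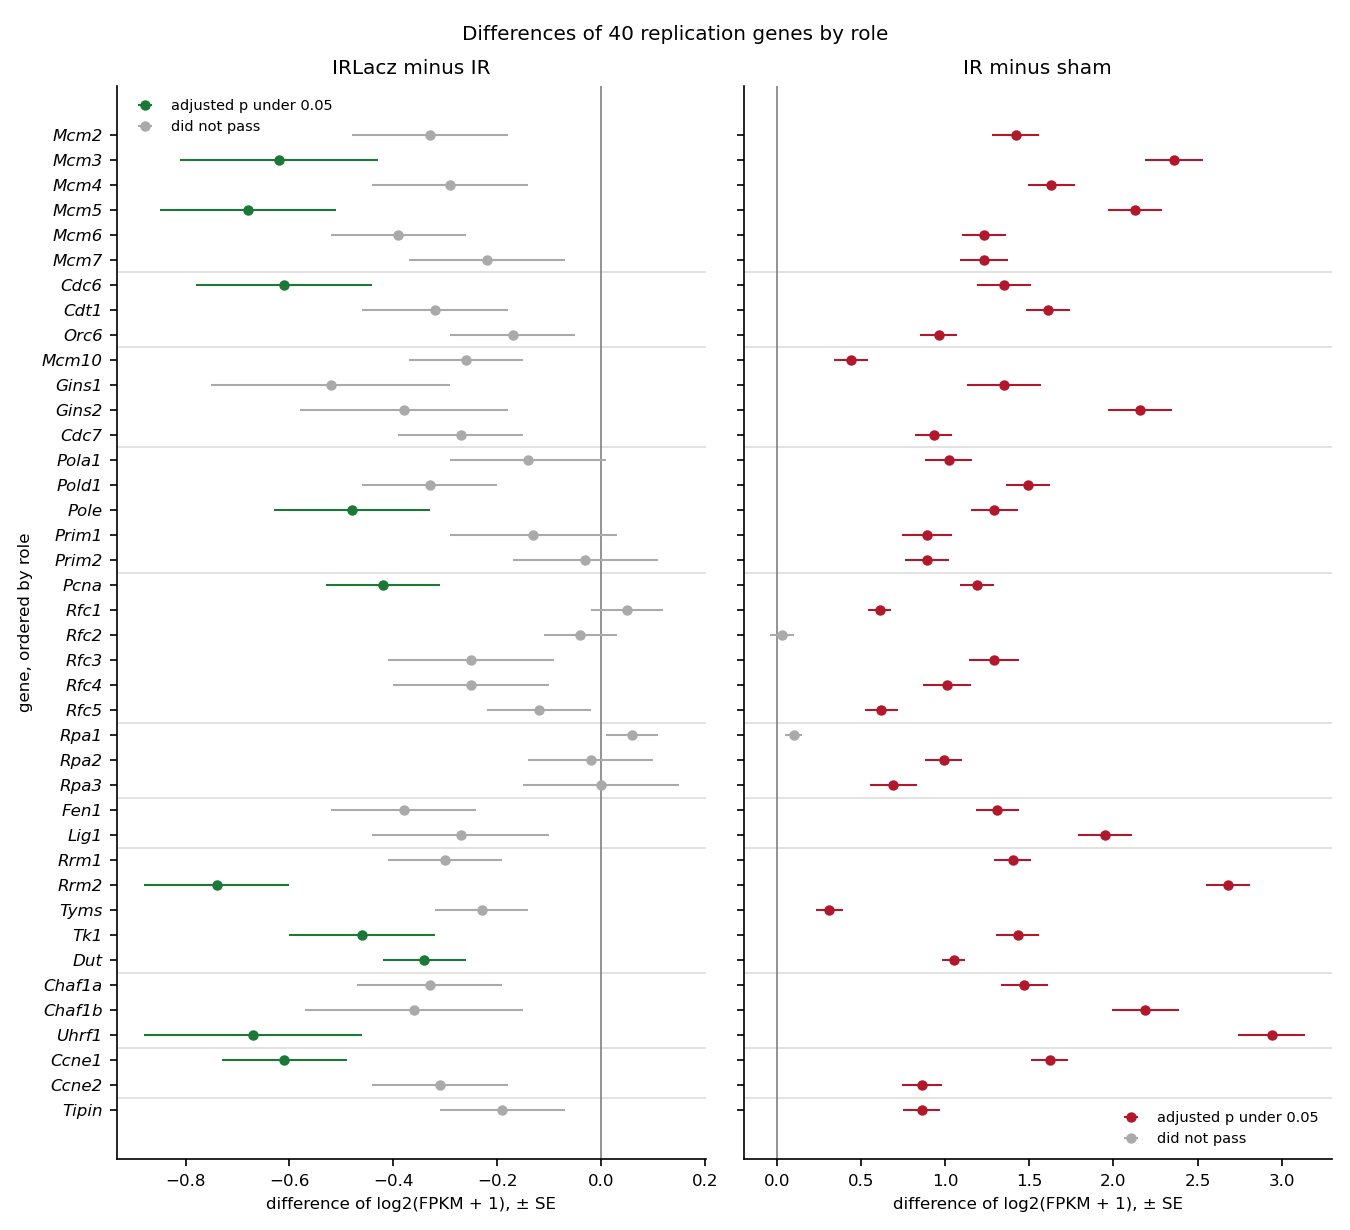
Log2 differences of the 40 members, grouped by role from the MCM helicase at the top to Tipin at the bottom, as IRLacz minus IR (left, 4 against 5 libraries) and IR minus sham (right, 5 against 5), with the standard error as bars. Coloured points passed an adjusted p of 0.05: 10 to the left of 0 in the left panel, 38 to the right of 0 in the right panel, 9 of which met the filter only with the help of injured kidneys.

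All 6 genes of the MCM2-7 helicase, the ring that opens the DNA, were higher in IR than in sham kidneys, by 1.23 to 2.36 on the log2 scale. In IRLacz against IR kidneys 2 of them, Mcm3 and Mcm5, were lower, and the 6 differences ran between -0.68 and -0.22. Mcm5 had 3.23, 6.35, 6.62 and 8.16 FPKM in IRLacz libraries, 10.61, 9.96, 5.97, 8.97 and 7.88 in IRLac libraries, 9.74, 10.5, 10.92, 9.38 and 9.31 in IR libraries, and 1.52, 1.47, 1.35, 1.77 and 1.41 FPKM in sham libraries. The IRLacz libraries all lay below the IR libraries, IRLacz replicate 1 lowest, and all injured libraries lay above sham. The difference was -0.68 ± 0.17 (SE), adjusted p = 0.017 between IRLacz and IR kidneys (-0.45, adjusted p = 0.039, without IRLacz replicate 1), and 2.13 ± 0.16 (SE), adjusted p = 2.9e-09 between IR and sham kidneys. Mcm7, the most abundant of the 6, had 15.49, 23.32, 23.79 and 28.45 FPKM in IRLacz libraries, 30.98, 30.06, 18.28, 23.76 and 23.68 in IRLac libraries, 26.99, 25.25, 27.17, 27.02 and 24.17 in IR libraries, and 11.16, 10.95, 11.22, 9.0 and 10.58 FPKM in sham libraries. IRLacz replicate 4 lay above all IR libraries and the other IRLacz libraries below them, and every sham library lay lowest. IRLacz and IR kidneys differed by -0.22 ± 0.15 (SE), adjusted p = 0.31, which did not pass, and IR and sham kidneys by 1.23 ± 0.14 (SE), adjusted p = 3e-07. Mcm3 averaged 7.47 ± 2.42 FPKM in IRLacz, 10.6 ± 2.44 in IRLac, 11.6 ± 1.53 in IR and 1.44 ± 0.186 FPKM in sham kidneys (mean ± SD, here and for other members, n = 4 IRLacz and 5 of each other group). Its difference was -0.62 ± 0.19 (SE), adjusted p = 0.036 in IRLacz against IR kidneys, and the groups did not overlap. Without IRLacz replicate 1 it was smaller and did not pass (-0.38, adjusted p = 0.11). Mcm2, Mcm4 and Mcm6 did not pass in that comparison, with limma's adjusted p = 0.13, 0.21 and 0.059. Mcm2 averaged 10.6 ± 2.60 FPKM in IRLacz, 12.3 ± 2.39 in IRLac, 13.3 ± 1.33 in IR and 4.31 ± 0.260 FPKM in sham kidneys. Mcm4 averaged 6.17 ± 1.67 FPKM in IRLacz, 7.30 ± 1.44 in IRLac, 7.60 ± 1.03 in IR and 1.77 ± 0.198 FPKM in sham kidneys, and Mcm6 averaged 16.02 ± 2.39 FPKM in IRLacz, 19.5 ± 3.34 in IRLac, 21.2 ± 1.60 in IR and 8.55 ± 1.58 FPKM in sham kidneys. Exons of Mcm7 overlap those of Ap4m1 and Cops6 on the other strand, and the strand of the libraries is not stated, so their reads cannot be told apart.

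The helicase is loaded at origins by the origin recognition complex with Cdc6 and Cdt1. Cdc6 had 0.31, 1.04, 1.54 and 0.93 FPKM in IRLacz libraries, 2.04, 1.79, 0.97, 1.24 and 1.68 in IRLac libraries, 1.39, 2.08, 2.49, 2.21 and 1.51 in IR libraries, and 0.09, 0.08, 0.07, 0.32 and 0.15 FPKM in sham libraries. Sham kidneys were below 0.33 FPKM throughout, IRLacz replicate 1 lay within the sham range, and IRLacz and IR libraries overlapped through a single IRLacz library. IRLacz kidneys were lower than IR kidneys (log2 difference -0.61, SE 0.17, adjusted p = 0.026), a call lost without IRLacz replicate 1 (-0.43, adjusted p = 0.085). The IR minus sham difference was 1.35 ± 0.16 (SE), given without a test. Cdt1 had 6.43, 7.96, 9.34 and 9.66 FPKM in IRLacz libraries, 12.6, 12.18, 6.96, 9.53 and 8.23 in IRLac libraries, 10.13, 10.2, 12.15, 10.46 and 10.0 in IR libraries, and 2.72, 2.65, 2.82, 2.62 and 3.1 FPKM in sham libraries. All IRLacz libraries lay below all IR libraries, and sham libraries lay below both. The IRLacz difference was -0.32 ± 0.14 (SE), adjusted p = 0.12 and did not pass, and that of IR against sham kidneys was 1.61 ± 0.13 (SE), adjusted p = 5.2e-09. Orc6, a subunit of the recognition complex, averaged 5.90 ± 1.37 FPKM in IRLacz, 6.53 ± 0.606 in IRLac, 6.65 ± 0.639 in IR and 2.96 ± 0.491 FPKM in sham kidneys, and was higher in IR than in sham kidneys (log2 difference 0.96, SE 0.11, adjusted p = 6.7e-07). Its exons overlap those of Vps35 on the other strand. Orc1, its largest subunit, stayed below the filter, at 0.12 to 0.36 FPKM in IRLacz, 0.23 to 0.57 in IRLac, 0.31 to 0.69 in IR and 0.04 to 0.10 FPKM in sham libraries.

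Activation of the loaded helicase needs the kinase Cdc7, the GINS complex, Cdc45 and Mcm10. The 4 members above the filter had higher levels in IR than in sham kidneys, by 0.44 to 2.16, with Cdc7 and Gins2 above it only through injured kidneys, except that Mcm10 turned to -0.08 under quantile scaling. In IRLacz against IR kidneys 0 of the 4 passed with limma, and 3 were lower at an unadjusted p under 0.05. Gins2 had 4.41, 8.36, 8.92 and 8.11 FPKM in IRLacz libraries, 9.74, 10.21, 6.6, 8.32 and 8.34 in IRLac libraries, 10.48, 10.95, 10.27, 9.07 and 8.13 in IR libraries, and 0.97, 2.51, 0.82, 2.2 and 0.98 FPKM in sham libraries. Every injured library lay above every sham library, and IRLacz replicate 1 was the lowest of the injured. The difference was -0.38 ± 0.20 (SE), adjusted p = 0.2 in IRLacz against IR kidneys, which did not pass, and 2.16 ± 0.19 (SE) in IR against sham kidneys, given without a test. Mcm10 had 1.68, 1.86, 1.9 and 1.4 FPKM in IRLacz libraries, 1.75, 2.19, 1.16, 2.08 and 1.74 in IRLac libraries, 2.05, 2.49, 2.52, 2.14 and 1.97 in IR libraries, and 1.22, 1.48, 1.33, 1.21 and 1.65 FPKM in sham libraries. All IRLacz values were below all IR values, while IRLacz and IRLac values both overlapped the sham values. Its differences were small, -0.26 ± 0.11 (SE), adjusted p = 0.11 in IRLacz against IR kidneys and 0.44 ± 0.10 (SE), adjusted p = 0.00063 in IR against sham kidneys. Gins1 averaged 3.56 ± 1.28 FPKM in IRLacz, 4.71 ± 1.58 in IRLac, 5.39 ± 0.923 in IR and 1.55 ± 0.571 FPKM in sham kidneys, and Cdc7 averaged 0.912 ± 0.246 FPKM in IRLacz, 1.15 ± 0.276 in IRLac, 1.31 ± 0.354 in IR and 0.204 ± 0.0279 FPKM in sham kidneys. Cdc45, below the filter, had 0.00, 0.51, 1.15 and 2.25 FPKM in IRLacz, 0.52 to 0.97 in IRLac, 0.34 to 0.76 in IR and 0.22 to 0.46 FPKM in sham libraries. It was listed at 0 in the same IRLacz library that was low for most members. Exons of Gins2 overlap those of Gse1, and those of Cdc45 overlap Ufd1, on the other strand.

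All 5 polymerase and primase genes had higher levels in IR than in sham kidneys, by 0.89 to 1.49, with Pola1 and Pole among those that met the filter through injured kidneys alone. Pole was lower in IRLacz than in IR kidneys. Pole, the catalytic subunit of the leading-strand polymerase epsilon, had 0.66, 1.28, 1.76 and 1.86 FPKM in IRLacz libraries, 2.73, 2.15, 1.98, 2.6 and 2.23 in IRLac libraries, 2.26, 3.04, 2.69, 1.73 and 1.77 in IR libraries, and 0.45, 0.35, 0.24, 0.29 and 0.36 FPKM in sham libraries. IRLacz libraries were below every IRLac library, and a pair of them lay within the IR range. The difference was -0.48 ± 0.15 (SE), adjusted p = 0.038 in IRLacz against IR kidneys, and without IRLacz replicate 1 it did not pass (-0.31, adjusted p = 0.13). Between IR and sham kidneys it was 1.29 ± 0.14 (SE), given without a test. Pold1, the catalytic subunit of the lagging-strand polymerase delta, had 5.6, 7.69, 8.31 and 10.08 FPKM in IRLacz libraries, 11.37, 9.57, 7.16, 10.28 and 8.04 in IRLac libraries, 10.89, 11.1, 10.43, 8.86 and 9.04 in IR libraries, and 2.49, 2.86, 3.06, 2.98 and 3.26 FPKM in sham libraries. Injured libraries were all above sham, and IRLacz replicate 4 lay within the IR range. It did not pass in IRLacz against IR kidneys (log2 difference -0.33, SE 0.13, adjusted p = 0.1) and was higher in IR than in sham kidneys (log2 difference 1.49, SE 0.13, adjusted p = 1.1e-08). Polymerase alpha and primase lay the first primer. Pola1 averaged 2.11 ± 0.416 FPKM in IRLacz, 2.49 ± 0.733 in IRLac, 2.42 ± 0.392 in IR and 0.684 ± 0.132 FPKM in sham kidneys, and the primase subunit Prim1 averaged 6.67 ± 2.29 FPKM in IRLacz, 7.57 ± 1.09 in IRLac, 7.18 ± 1.19 in IR and 3.41 ± 0.527 FPKM in sham kidneys. The other primase subunit, Prim2, averaged 4.19 ± 0.945 FPKM in IRLacz, 4.19 ± 0.805 in IRLac, 4.27 ± 0.622 in IR and 1.84 ± 0.312 FPKM in sham kidneys. Their IRLacz minus IR differences were -0.14, -0.13 and -0.03, none of which passed. Pole shares exon sequence with an antisense gene, so its reads cannot be assigned without strand.

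PCNA is the sliding clamp and RFC the complex that loads it. Pcna had 46.98, 58.34, 60.99 and 64.17 FPKM in IRLacz libraries, 79.59, 68.49, 52.34, 69.53 and 68.99 in IRLac libraries, 79.76, 82.38, 88.59, 70.54 and 65.37 in IR libraries, and 34.38, 32.69, 33.2, 31.84 and 33.77 FPKM in sham libraries. Every IRLacz library was below every IR library, and every injured library above every sham library. The level was 0.745 of IR in IRLacz kidneys (log2 difference -0.42, SE 0.11, adjusted p = 0.02) and 2.33-fold higher in IR than in sham kidneys (log2 difference 1.19, SE 0.10, adjusted p = 1.4e-08). Without IRLacz replicate 1, Pcna did not pass in IRLacz against IR kidneys (-0.33, adjusted p = 0.063). Processed copies of Pcna are annotated, and reads could be split between them. Of the 5 loader subunits, 4 were higher in IR than in sham kidneys, by 0.61 (Rfc1), 0.62 (Rfc5), 1.01 (Rfc4) and 1.29 (Rfc3). The fifth, Rfc2, had 28.51, 37.16, 33.52 and 32.26 FPKM in IRLacz libraries, 31.52, 32.16, 36.85, 35.99 and 33.99 in IRLac libraries, 37.76, 33.32, 32.07, 30.98 and 34.32 in IR libraries, and 33.19, 32.28, 32.96, 34.16 and 32.14 FPKM in sham libraries. All groups overlapped, and the sham values sat inside the range of each injured group. The IR minus sham difference was 0.03 ± 0.07 (SE), adjusted p = 0.71, with a 95% interval from -0.11 to 0.17, and turned negative under median-ratio (-0.31) and quantile scaling (-0.15). In IRLacz against IR kidneys it was -0.04 ± 0.07 (SE), adjusted p = 0.75. Exons of Rfc2 overlap those of Lat2, a leukocyte adaptor gene on the other strand, so reads of both genes cannot be told apart. In IRLacz against IR kidneys 0 loader subunits passed with limma, 0 of them also at an unadjusted p under 0.05, with differences between -0.25 and 0.05. Whether Pcna differed from them there was not tested. Rfc1, the large subunit, averaged 8.93 ± 0.664 FPKM in IRLacz, 8.51 ± 0.943 in IRLac, 8.56 ± 0.396 in IR and 5.29 ± 0.369 FPKM in sham kidneys. Rfc3 averaged 8.63 ± 2.48 FPKM in IRLacz, 9.78 ± 1.97 in IRLac, 10.2 ± 0.843 in IR and 3.57 ± 0.506 FPKM in sham kidneys. Rfc4 averaged 5.01 ± 0.676 FPKM in IRLacz, 6.40 ± 1.47 in IRLac, 6.22 ± 1.45 in IR and 2.55 ± 0.293 FPKM in sham kidneys, and Rfc5 averaged 10.4 ± 1.92 FPKM in IRLacz, 10.8 ± 1.00 in IRLac, 11.2 ± 0.963 in IR and 6.998 ± 0.616 FPKM in sham kidneys. Exons of Rfc4 overlap those of Eif4a2, and those of Rfc5 overlap Wsb2, on the other strand.

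RPA coats single-stranded DNA as a complex of large, middle and small subunits. Rpa1, the large subunit, had 21.01, 18.98, 19.88 and 19.71 FPKM in IRLacz libraries, 19.92, 20.62, 19.34, 18.8 and 20.13 in IRLac libraries, 18.61, 19.86, 18.69, 19.64 and 18.62 in IR libraries, and 18.85, 17.77, 19.27, 16.22 and 16.95 FPKM in sham libraries. The groups overlapped, and the whole span was narrow. It did not pass in IR against sham kidneys (log2 difference 0.10, SE 0.05, adjusted p = 0.094), where the sign turned to -0.23 and -0.18 under median-ratio and quantile scaling, or in IRLacz against IR kidneys (log2 difference 0.06, SE 0.05, adjusted p = 0.49). Rpa2, the middle subunit, averaged 8.96 ± 1.59 FPKM in IRLacz, 9.07 ± 1.39 in IRLac, 9.05 ± 0.998 in IR and 4.04 ± 0.501 FPKM in sham kidneys, and the small subunit Rpa3 averaged 19.1 ± 4.67 FPKM in IRLacz, 19.7 ± 2.66 in IRLac, 18.8 ± 3.09 in IR and 11.2 ± 0.444 FPKM in sham kidneys. Both were higher in IR than in sham kidneys, by 0.99 and 0.69, and differed by -0.02 and -0.00 between IRLacz and IR kidneys. In IRLacz against IR kidneys 0 of the 3 subunits passed with limma, 0 also at an unadjusted p under 0.05, and the smallest adjusted p was 0.49.

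Fen1 trims the flaps between Okazaki fragments and Lig1 seals them. Fen1 had 6.27, 6.82, 8.5 and 10.37 FPKM in IRLacz libraries, 11.96, 11.29, 7.03, 10.81 and 8.7 in IRLac libraries, 11.69, 10.1, 12.65, 9.6 and 8.88 in IR libraries, and 3.32, 3.72, 3.92, 3.81 and 3.41 FPKM in sham libraries. IRLacz and IR libraries overlapped through IRLacz replicate 4, and sham libraries were below all injured ones. The differences were -0.38 ± 0.14 (SE), adjusted p = 0.083 in IRLacz against IR kidneys, which did not pass, and 1.31 ± 0.13 (SE), adjusted p = 1.1e-07 in IR against sham kidneys. Lig1 averaged 8.42 ± 2.80 FPKM in IRLacz, 9.65 ± 1.92 in IRLac, 9.93 ± 0.703 in IR and 1.82 ± 0.0814 FPKM in sham kidneys. It was higher in IR than in sham kidneys (log2 difference 1.95, SE 0.16, adjusted p = 8.2e-09) and did not pass in IRLacz against IR kidneys (log2 difference -0.27, SE 0.17, adjusted p = 0.29). Fen1 overlaps Tmem258 and Lig1 overlaps Zswim9, each on the other strand.

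Nucleotide supply held the member with the smallest p in IRLacz against IR kidneys. Rrm2, the small subunit of ribonucleotide reductase whose level follows S phase, had 7.35, 10.6, 9.64 and 10.19 FPKM in IRLacz libraries, 18.25, 12.94, 10.96, 12.78 and 14.71 in IRLac libraries, 14.93, 21.51, 18.34, 15.12 and 13.11 in IR libraries, and 1.73, 1.4, 1.94, 1.8 and 1.68 FPKM in sham libraries. All 4 IRLacz libraries were below every IRLac and every IR library, and all injured libraries stood far above sham. The level in IRLacz kidneys was 0.569 of that in IR kidneys (log2 difference -0.74, SE 0.14, adjusted p = 0.0061), and in IR kidneys it was 9.71-fold that in sham kidneys (log2 difference 2.68, SE 0.13, adjusted p = 6.2e-11). Tk1, the thymidine kinase of cycling cells, had 8.9, 10.64, 14.88 and 9.45 FPKM in IRLacz libraries, 18.69, 14.01, 12.16, 16.09 and 13.2 in IRLac libraries, 15.45, 17.65, 16.68, 13.35 and 13.04 in IR libraries, and 5.22, 4.34, 4.74, 6.34 and 4.53 FPKM in sham libraries. IRLacz replicate 3 lay within the IR range and the other IRLacz libraries below it. IRLacz kidneys were lower than IR kidneys (log2 difference -0.46, SE 0.14, adjusted p = 0.041), a call lost without IRLacz replicate 1 (-0.37, adjusted p = 0.12), and IR kidneys were higher than sham kidneys (log2 difference 1.43, SE 0.13, adjusted p = 3.7e-08). Dut, which removes dUTP, averaged 10.7 ± 1.31 FPKM in IRLacz, 13.4 ± 0.759 in IRLac, 13.8 ± 0.799 in IR and 6.13 ± 0.592 FPKM in sham kidneys. Its groups did not overlap between IRLacz and IR kidneys (log2 difference -0.34, SE 0.08, adjusted p = 0.012). Rrm1, the large reductase subunit, averaged 7.16 ± 0.988 FPKM in IRLacz, 8.97 ± 1.58 in IRLac, 9.002 ± 0.883 in IR and 2.80 ± 0.260 FPKM in sham kidneys, and did not pass in IRLacz against IR kidneys (log2 difference -0.30, SE 0.11, adjusted p = 0.087). Tyms, which makes thymidylate, averaged 6.15 ± 0.102 FPKM in IRLacz, 7.38 ± 0.804 in IRLac, 7.42 ± 0.991 in IR and 5.74 ± 0.376 FPKM in sham kidneys. It had the smallest difference among the members that passed in IR against sham kidneys (log2 difference 0.31, SE 0.08, adjusted p = 0.0019), with IR replicate 4 inside the sham range. It did not pass under median-ratio (0.02) or quantile scaling, where the sign turned (-0.11). Tk1 overlaps Afmid on the other strand. A copy of Tyms is annotated, and reads could be split with it.

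**Figure D3:**
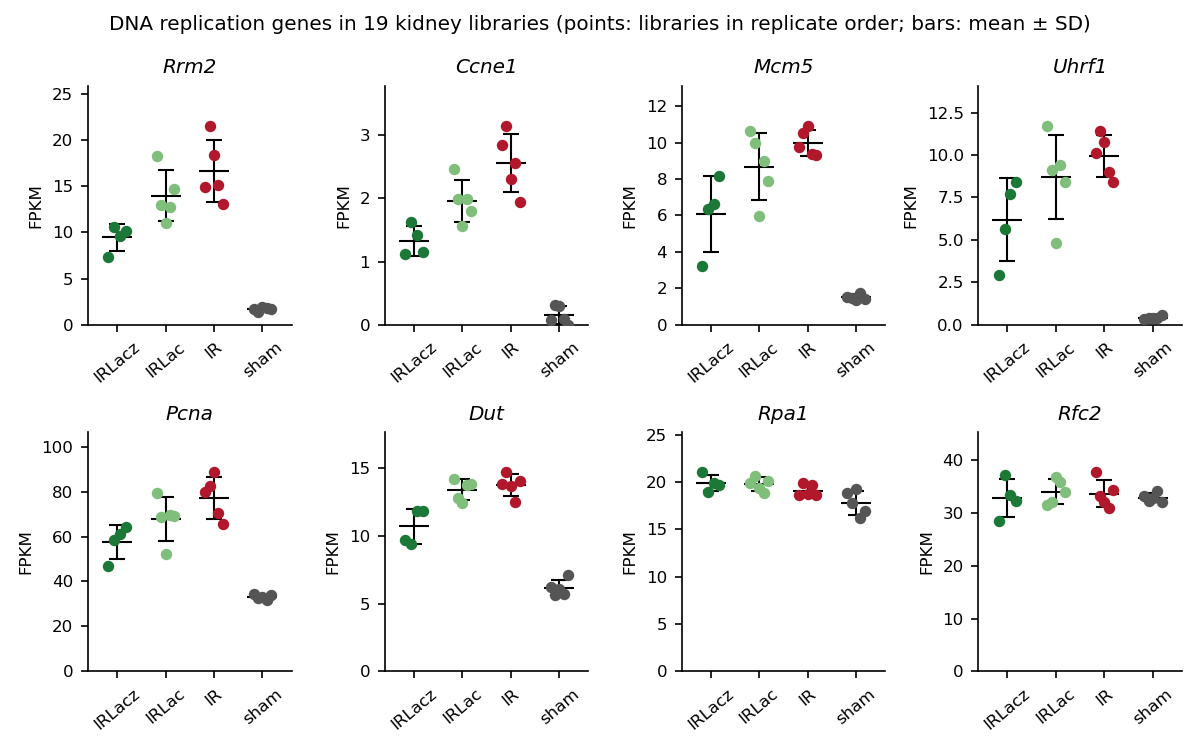
FPKM of 8 members in every library, with the mean and SD of each group (IRLacz n = 4, the others n = 5). Rrm2, Ccne1, Mcm5, Uhrf1, Pcna and Dut passed as lower in IRLacz than in IR kidneys and lay higher in IR than in sham kidneys, while Rpa1 and Rfc2 passed in neither on FPKM as deposited (both passed as lower in IR than in sham kidneys under median-ratio scaling).

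Chromatin behind the fork is rebuilt by CAF-1, with the subunits Chaf1a and Chaf1b, while Uhrf1 carries DNA methylation over to the new strand. Uhrf1 had 2.96, 5.64, 7.69 and 8.44 FPKM in IRLacz libraries, 11.72, 9.09, 4.83, 9.43 and 8.42 in IRLac libraries, 10.09, 11.39, 10.77, 8.99 and 8.42 in IR libraries, and 0.33, 0.39, 0.42, 0.4 and 0.58 FPKM in sham libraries. Sham libraries were all below 0.6 FPKM, IRLacz replicate 1 was the lowest injured library, and IRLacz replicate 4 just entered the IR range. It was lower in IRLacz than in IR kidneys (log2 difference -0.67, SE 0.21, adjusted p = 0.045; -0.41, adjusted p = 0.15, without IRLacz replicate 1). IR kidneys had 23.4-fold the level of sham kidneys (mean over mean), given without a test. Chaf1a averaged 3.72 ± 0.681 FPKM in IRLacz, 4.63 ± 1.04 in IRLac, 4.91 ± 0.782 in IR and 1.13 ± 0.274 FPKM in sham kidneys. Chaf1b averaged 5.17 ± 1.98 FPKM in IRLacz, 5.79 ± 1.62 in IRLac, 6.56 ± 0.612 in IR and 0.678 ± 0.313 FPKM in sham kidneys. Their IR minus sham differences were 1.47, which passed, and 2.19, given without a test, and neither passed in IRLacz against IR kidneys (adjusted p = 0.13 and 0.25). Exons of Chaf1a overlap those of Ubxn6 on the other strand.

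Cyclin E with its kinase Cdk2 starts S phase. Ccne1 had 1.12, 1.62, 1.42 and 1.16 FPKM in IRLacz libraries, 2.47, 1.99, 1.57, 1.99 and 1.8 in IRLac libraries, 2.84, 3.15, 2.31, 2.56 and 1.95 in IR libraries, and 0.07, 0.31, 0.3, 0.1 and 0.0 FPKM in sham libraries, the last of which is an entry listed at 0. All IRLacz libraries lay below all IR libraries, and all injured libraries far above sham. The difference was -0.61 ± 0.12 (SE), adjusted p = 0.0066 in IRLacz against IR kidneys, a level 0.519 of that in IR kidneys. In IR against sham kidneys it was 1.62 ± 0.11 (SE), given without a test. Ccne2 averaged 0.902 ± 0.215 FPKM in IRLacz, 0.964 ± 0.301 in IRLac, 1.37 ± 0.376 in IR and 0.300 ± 0.0787 FPKM in sham kidneys. Its IR minus sham difference was 0.86 ± 0.12 (SE) and its IRLacz minus IR difference -0.31 ± 0.13 (SE), both given without a test. Ccne2 met the filter only with the help of IR libraries, so a level below that of IR kidneys is partly built into the rule. Exons of Ccne2 overlap those of Ints8 on the other strand. Tipin, which with Timeless steadies stalled forks, had 5.03, 6.57, 5.99 and 6.8 FPKM in IRLacz libraries, 7.86, 8.11, 5.56, 7.66 and 6.45 in IRLac libraries, 7.79, 5.3, 8.09, 7.22 and 7.1 in IR libraries, and 3.64, 3.37, 3.06, 3.88 and 3.17 FPKM in sham libraries. Injured libraries lay above sham, and IRLacz and IR libraries overlapped through the low IR replicate 2. It was higher in IR than in sham kidneys (log2 difference 0.86, SE 0.11, adjusted p = 1.2e-06) and did not pass in IRLacz against IR kidneys (log2 difference -0.19, SE 0.12, adjusted p = 0.28).

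The make-up of the MCM2-7 transcripts differed between groups, a description chosen after the values were seen and given without a test. Per length, Mcm3 made up 10.6% ± 1.35 of the summed FPKM of the 6 genes in IRLacz (SD, n = 4), 12.6% ± 0.822 in IRLac, 12.9% ± 0.931 in IR and 5.13% ± 0.545 in sham kidneys (SD, n = 5 each). Mcm5 made up 8.61% ± 1.14 in IRLacz, 10.3% ± 0.482 in IRLac, 11.1% ± 0.311 in IR and 5.40% ± 1.06 in sham kidneys. Mcm7 had the opposite order, 33.0% ± 0.57 in IRLacz, 30.3% ± 1.51 in IRLac, 29.1% ± 1.65 in IR and 37.6% ± 1.26 in sham kidneys. Its reads cannot be told apart from those of Ap4m1 and Cops6, a limit that bears on the shares of all 6 genes. IRLacz replicate 1 had the lowest Mcm3 and Mcm5 shares of its group, at 8.59% and 6.96%. The ratio of Rrm2 to Rrm1 was 1.29, 1.40, 1.25 and 1.33 in IRLacz, 1.72, 1.32, 1.71, 1.45 and 1.60 in IRLac, 1.73, 2.21, 1.83, 1.73 and 1.67 in IR, and 0.70, 0.517, 0.688, 0.645 and 0.527 in sham libraries. IRLacz ratios were all below IR ratios, and the low IRLacz replicate 1 sat within its own group here. Other ratios were looked at too. IRLacz and IR libraries overlapped for Mcm3 over Mcm6 (0.308 to 0.514 and 0.489 to 0.609), and also for Uhrf1 over Pcna and Ccne1 over Ccne2. They did not overlap for Cdt1 over Gmnn (0.417 to 0.593 and 0.606 to 0.836).

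**Figure D4:**
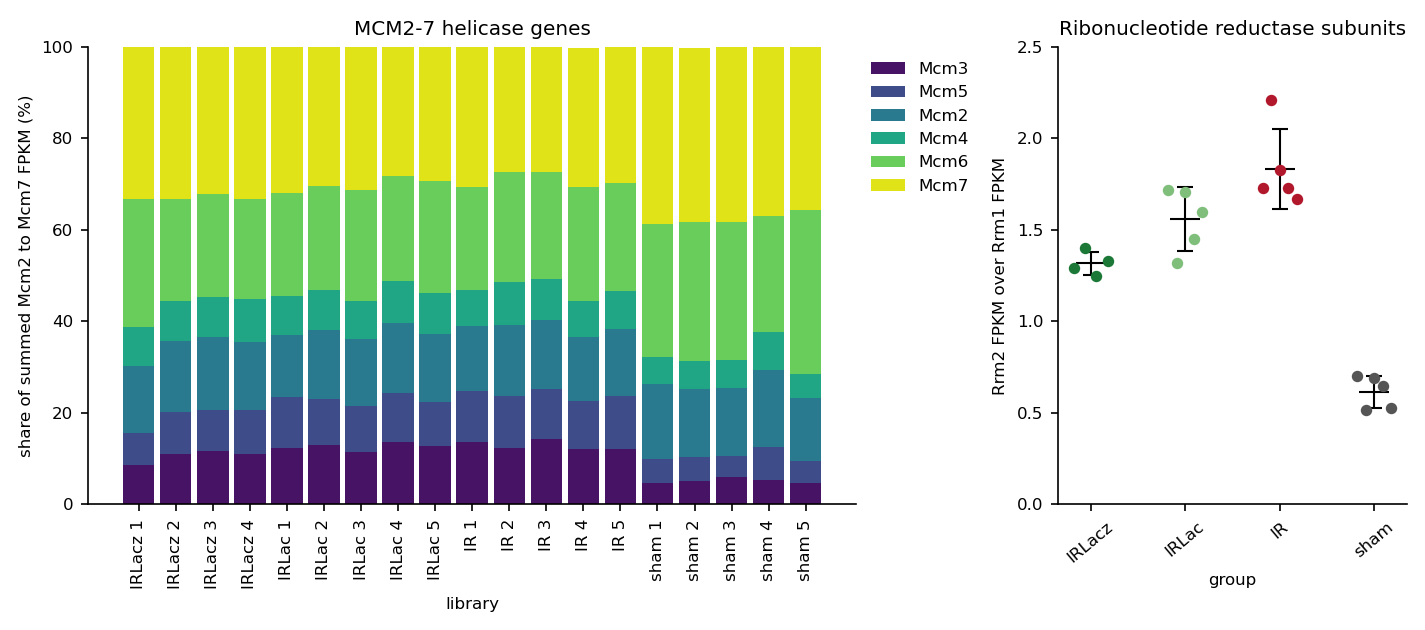
Left, share of each gene in the summed FPKM of Mcm2 to Mcm7 in each library; Mcm3 and Mcm5 together take a smaller part in the 5 sham libraries. Right, Rrm2 FPKM over Rrm1 FPKM in each library with the group mean and SD: 1.25 to 1.40 in IRLacz, 1.32 to 1.72 in IRLac, 1.67 to 2.21 in IR and 0.517 to 0.70 in sham libraries.

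In IRLac against IR kidneys, a comparison that shares its IR libraries with the one above, 0 members passed in either direction with limma. At an unadjusted p under 0.05 there were 3 lower members (Ccne1, Ccne2 and Mcm10) and 0 higher. Ccne2 met the filter only with the help of IR libraries, so its difference is partly built into the rule. Of all entries, 0.00736% passed as lower and 0.0% as higher, while 481 of the 13594 were lower and 305 higher at an unadjusted p under 0.05. The members' median difference was -0.07, within a range from -0.27 to 0.07, and the smallest adjusted p was 0.81. Rrm2 differed by -0.24, with a 95% interval from -0.51 to 0.04, Mcm5 by -0.20 (-0.54 to 0.14), Pcna by -0.19 (-0.41 to 0.02) and Dut by -0.03 (-0.19 to 0.12). Without IRLac replicate 3 the median was 0.01 and 0 members passed, 0 of them at an unadjusted p. Without IR replicate 5, 116 entries passed and again 0 members.

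IRLacz and IRLac kidneys were also compared directly. With limma 0 members passed, and at an unadjusted p under 0.05 there were 12 lower and 0 higher. Of all entries, 0.0147% passed as lower and 0.00736% as higher. At an unadjusted p under 0.05, 1228 of the 13594 entries were lower and 943 higher. The members' median was -0.21. Of their 40 differences 38 were below 0, against 7042 of the 13594 over all entries. In 4 members, Rrm2, Dut, Pole and Tyms, every IRLacz library lay below every IRLac library, against 1.57% of all entries. Dut had the smallest adjusted p, 0.10, at -0.31 (95% interval -0.47 to -0.14), then Rrm2 at -0.51 (-0.80 to -0.21) and Pole at -0.51 (-0.82 to -0.20), both with an adjusted p of 0.12. Without IRLac replicate 3, 4 members passed as lower (Dut, Mcm3, Rrm1 and Rrm2), with 2.73% of entries lower and 0.875% higher. With IRLacz replicate 1 left out as well, 0 members passed, with 0.486% of entries lower and 0.147% higher.

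After the gavages most members were still above sham levels. These comparisons share the sham libraries with that of IR kidneys. In IRLacz against sham kidneys 37 of 40 members were higher and 0 lower, where 56.9% of entries were higher and 13.5% lower, and the members' median was 0.87. Of the 31 that met the filter in sham libraries, 28 were higher, against 53.8% of such entries. In 34 of the 40 the groups did not overlap, against 45.1% of entries. The 40 include the members that met the filter only with the help of injured kidneys, so this count is a description. Rfc2 (-0.01), Mcm10 (0.19) and Tyms (0.09) did not pass, and under quantile scaling Mcm10 (-0.33) and Tyms (-0.33) passed as lower. Under median-ratio scaling Rfc2 (-0.35), Tyms (-0.22) and Rpa1 (-0.18) passed as lower, although Rpa1 was one of the 37 higher on FPKM as deposited (log2 difference 0.15, adjusted p = 0.017). In IRLac against sham kidneys 38 were higher and 0 lower, where 58.0% of entries were higher and 16.8% lower, and the median was 1.15. Of the 31, 29 were higher, against 55.3% of such entries. The groups did not overlap in 37 of all 40 members, with the same limit, and in 46.6% of entries. Rfc2 (0.05) and Mcm10 (0.22) did not pass. Under median-ratio scaling Rfc2 (-0.30) and Rpa1 (-0.20) passed as lower, and under quantile scaling Mcm10 (-0.30) did. Higher entries were 80.8% of the calls in IRLacz and 77.5% in IRLac against sham kidneys, but 48.5% and 48.9% under median-ratio scaling, where 35 and 36 members were higher.

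A further 71 genes of the replication pathway, outside the 42, were looked at as a list, and 68 were tested (Ticrr, Recql4 and E2f7 were below the filter). In IR against sham kidneys 56 were higher and 4 lower, among them Rbl2, Rrm2b and Shmt1, with a median of 0.76, where 57.0% of all entries were higher and 18.6% lower. Of the 55 that met the filter in sham libraries, 43 were higher and 4 lower, with a median of 0.49. In IRLacz against IR kidneys 16 were lower and 3 higher (Rb1, Rbl2 and Shmt1), with a median of -0.19, where 7.92% of all entries were lower and 5.39% higher. Without IRLacz replicate 1, only Ccnd2, Chtf8 and Top1 of the 16 still passed as lower, and Rb1 and Shmt1 of the 3 as higher. Over all entries 3.46% were then lower and 4.83% higher. Timeless, the partner of Tipin, averaged 3.19 ± 0.540 FPKM in IRLacz, 3.50 ± 0.386 in IRLac, 4.15 ± 0.343 in IR and 1.10 ± 0.115 FPKM in sham kidneys, and passed in both comparisons (log2 difference -0.30, SE 0.09, adjusted p = 0.034 in IRLacz against IR kidneys). Pclaf, which binds PCNA, averaged 4.16 ± 1.49 FPKM in IRLacz, 7.27 ± 2.85 in IRLac, 8.65 ± 1.71 in IR and 0.462 ± 0.246 FPKM in sham kidneys. Its difference was -0.93 ± 0.23 (SE), adjusted p = 0.018 in IRLacz against IR kidneys and, without a test because Pclaf was below 1 FPKM in every sham library, 2.72 ± 0.22 (SE) in IR against sham kidneys. Dck, which salvages deoxycytidine, averaged 4.53 ± 0.798 FPKM in IRLacz, 4.81 ± 0.802 in IRLac, 6.86 ± 1.40 in IR and 1.62 ± 0.183 FPKM in sham kidneys, and was lower in IRLacz than in IR kidneys (log2 difference -0.50, SE 0.14, adjusted p = 0.025). Without IRLacz replicate 1 these 3 did not pass in IRLacz against IR kidneys, at -0.22 (Timeless, adjusted p = 0.11), -0.74 (Pclaf, 0.056) and -0.39 (Dck, 0.081).

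Of the genes lower in IR than in sham kidneys, Shmt1 and Rbl2 had the smallest p. Shmt1, the cytosolic serine hydroxymethyltransferase, averaged 25.4 ± 1.30 FPKM in IRLacz, 21.7 ± 1.67 in IRLac, 18.5 ± 1.88 in IR and 26.6 ± 1.97 FPKM in sham kidneys. It was higher in IRLacz than in IR kidneys (log2 difference 0.44, SE 0.08, adjusted p = 0.0058) and lower in IR than in sham kidneys (log2 difference -0.50, SE 0.07, adjusted p = 5.6e-06). Rbl2, a retinoblastoma family member of resting cells, averaged 14.3 ± 1.04 FPKM in IRLacz, 12.5 ± 1.34 in IRLac, 11.4 ± 1.26 in IR and 16.03 ± 0.794 FPKM in sham kidneys. It was higher in IRLacz than in IR kidneys (log2 difference 0.31, SE 0.08, adjusted p = 0.02; 0.28, adjusted p = 0.057, without IRLacz replicate 1) and lower in IR than in sham kidneys (log2 difference -0.46, SE 0.08, adjusted p = 2.7e-05).

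Regulators of the same step completed the list. E2f1, a transcription factor of S-phase genes, averaged 3.92 ± 0.446 FPKM in IRLacz, 4.91 ± 1.22 in IRLac, 5.64 ± 0.948 in IR and 1.78 ± 0.126 FPKM in sham kidneys, and passed as lower in IRLacz than in IR kidneys (log2 difference -0.42, SE 0.13, adjusted p = 0.042; -0.36, adjusted p = 0.11, without IRLacz replicate 1) and as higher in IR than in sham kidneys (log2 difference 1.24, SE 0.12, adjusted p = 8.7e-08). Geminin, Gmnn, which blocks Cdt1, averaged 16.9 ± 1.66 FPKM in IRLacz, 16.3 ± 2.05 in IRLac, 15.4 ± 0.935 in IR and 9.76 ± 0.824 FPKM in sham kidneys. It was higher in IR than in sham kidneys (log2 difference 0.61, SE 0.08, adjusted p = 2.1e-06) and did not pass in IRLacz against IR kidneys (log2 difference 0.12, SE 0.09, adjusted p = 0.35). Cdkn1a encodes p21, an inhibitor of cyclin-dependent kinases and of PCNA, and averaged 27.9 ± 13.0 FPKM in IRLacz, 39.5 ± 13.2 in IRLac, 42.6 ± 8.31 in IR and 15.0 ± 3.02 FPKM in sham kidneys. Its IRLacz values ran between 12.9 and 43.99 FPKM and its IR values between 30.92 and 50.09 FPKM, so the groups overlapped. The difference did not pass in IRLacz against IR kidneys (log2 difference -0.69, SE 0.28, adjusted p = 0.11), and IR kidneys were higher than sham kidneys (log2 difference 1.45, SE 0.27, adjusted p = 8.8e-05).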

How the data were processed

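RNA was measured in 19 mouse kidney libraries. The authors deposited FPKM values per Entrez Gene entry. Per the submitters' processing notes, which give no roles, the tools were HISAT and StringTie 1.0.4 and the build mm9. Depth, strand and filters were not found in these sources. The labels' titles gave each library's group and replicate.

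The members and gene lists were chosen with earlier results of these data known. Entries with at least 1 FPKM in 4 or more libraries (13594 of 19287) were put on the log2(FPKM + 1) scale and fitted with limma 3.58.1, run in R 4.3.3 (empirical Bayes with trend, all 4 groups in a single fit, no block), and p-values of each of 6 comparisons were adjusted by Benjamini-Hochberg over all entries. The pseudocount makes fold changes of low genes smaller. The fit was tested on simulated data, with noise drawn separately for each entry and library. That setting held no library that was low as a whole, so it does not cover libraries such as IRLacz replicate 1. All 42 symbols were matched to RefSeq gene identifiers. Promoters came from RefSeq on GRCm38.p6, a different build from the authors', so no coordinates were joined. Overlapping exons came from GENCODE.

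Per-library values were given, by rule, for the member with the smallest p in IRLacz against IR kidneys and the most abundant member of each role, and for members that did not pass in IR against sham kidneys. Promoters shown are those of the 4 members with the smallest such p that hold an E2F-type spelling. In total, 31 alternatives were planned (12 settings and 19 single libraries left out), and 1 was added after seeing the data, leaving out IRLacz replicate 1 and IRLac replicate 3 together. Authors' tables of transcription factors were not used. One gene of the pathway list is not reported here.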

Additional observations from a re-analysis of the deposited data

Results flagged for a closer look

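Across 160 combinations of a member and a group, 10 (6.25%) had a library far from the others by Dixon's gap criterion, which chance passes in about 1 of 20 groups. Of these, 3 were low values of the pair of libraries that stood apart: Rrm1 (5.68 FPKM) and Pola1 (1.49 FPKM) in IRLacz replicate 1, and Lig1 (6.28 FPKM) in IRLac replicate 3. Among the other injured libraries, Ccne2 was high in IRLac replicate 5 (1.49 FPKM), Prim1 in IR replicate 4 (9.24 FPKM) and Cdt1 in IR replicate 3 (12.15 FPKM). In sham libraries, Mcm7 was low (9.0 FPKM) and Rpa2 high (4.91 FPKM) in replicate 4, Lig1 was low in replicate 3 (1.68 FPKM), and Pola1 was high in replicate 5 (0.91 FPKM).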

How the results depend on the processing

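With 4 or 5 libraries a group, FPKM without read counts and libraries that cannot be tied to mice, small differences of low genes such as Cdc7 and Ccne2 cannot be resolved. The number of members higher than in sham kidneys stayed within 1.5 times its main value under all 32 alternatives in each of the 3 comparisons with sham, and 0 members passed as lower except under 2 scalings. Under median-ratio scaling 3 (IRLacz), 2 (IRLac) and 2 (IR) members were lower than in sham kidneys, and under quantile scaling 2, 1 and 2, in the same order. In IR against sham kidneys Mcm10 turned to -0.08 (quantile), Rpa1 to -0.23 (median-ratio) and -0.18 (quantile), and Rfc2 to -0.31 (median-ratio), -0.15 (quantile) and, with 1 library left out, -0.01 to 0.06; the cause was not tested.

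For IRLacz against IR kidneys, 10 members were lower. The count was 6 with a pseudocount of 0.1, 4 with only the 2 groups fitted (fewer libraries estimate the spread) and 6 with the replicate block, and ran from 3 to 13 with 1 library left out. Over all entries 1809 passed, against 885 with only the 2 groups, 2978 with library weights and 606 to 2197 with 1 library left out. The small difference of Rfc2 turned to 0.04 (library weights) and 0.03 (both low libraries left out), and ran from -0.10 to 0.03 with 1 library left out; the cause was not tested.

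For IRLac against IR kidneys 1 entry passed. It was 0 with a mean of at least 5 FPKM, library weights, the replicate block and both low libraries left out, and 0 to 116 with 1 library left out. Members stayed at 0. For IRLacz against IRLac kidneys 0 members passed, 0 to 4 with 1 library left out. Entries passing were 3, and 1 with a pseudocount of 0.1, only the 2 groups or the replicate block, 5 with no filter or quantile scaling, 0 with a mean of at least 5 FPKM, 10 with median-ratio scaling, 167 with library weights, 86 with both low libraries left out and 1 to 490 with 1 library left out. Their split was 1 higher and 2 lower, 3 and 7 under median-ratio, 1 and 4 under quantile and 1 and 1 under TPM scaling.

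Whether equal replicate numbers mark paired libraries could not be settled. Of 27 same-numbered pairs 6 had a correlation over 0.1, and the correlations ran from -0.394 to 0.23. Pairs with different numbers were not set beside them. The replicate block gave the counts above.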
